A study of Homo sapiens with 8 samples.

Results

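Transcript levels of 30 genes of sterol and fatty acid synthesis were followed in COLO829 cells, a human line established from a melanoma, which carries an activating BRAF mutation. The genes came from a list of 32 enzymes, regulators and carriers of lipid synthesis, and each was represented by a probe set that carries exactly 1 gene symbol, the brightest such probe set over 8 arrays. FDFT1 and HSD17B7 had no such probe set and are not analysed here, which left 30 of the 18404 genes tested. All cells were infected with a pGIPZ vector, which carried either a hairpin against MITF (shMITF) or a scrambled hairpin (shSCR), and were selected with puromycin for 2 days. They then received PLX4032, a drug also called vemurafenib that blocks mutant BRAF, at 1 µM, or DMSO, its solvent, for 24 h. The 4 groups were shMITF PLX4032, shMITF DMSO, shSCR PLX4032 and shSCR DMSO, with 2 arrays each, labelled A and B. The labels name a single hairpin against MITF and do not say whether the 2 arrays of a group were separate cultures. The p-values therefore rest on the difference between the arrays within a group, which may be technical.

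Cells make cholesterol from acetyl-CoA through the mevalonate pathway, squalene and lanosterol, and make fatty acids from the same acetyl-CoA through acetyl-CoA carboxylase and fatty acid synthase. Both routes are driven by the transcription factors encoded by SREBF1 and SREBF2, which are held in the endoplasmic reticulum by INSIG proteins when sterols are plentiful and are cut free when sterols run low. In promoters these factors work together with NF-Y, which binds the CCAAT box. MITF, the lineage factor of melanocytes, binds variants of the E-box, and BRAF drives the MAPK pathway that supports growth of melanoma cells.

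The labelled perturbations were seen on the arrays. MITF read 10.07 and 10.08 in shMITF PLX4032 cells, 9.57 and 9.47 in shMITF DMSO cells and 10.88 and 10.80 in shSCR PLX4032 cells, against 10.44 and 10.46 in shSCR DMSO cells (log2 intensity, arrays A and B), which was lower in shMITF cells by 0.93 ± 0.080 in DMSO and by 0.76 ± 0.080 in PLX4032 on the log2 scale. The MAPK target genes DUSP6 and SPRY4 fell with PLX4032 in shMITF cells (-2.55 and -5.30) and in shSCR cells (-2.68 and -4.50). Of 6 measured melanocyte markers, PMEL, SOX10 and S100B stood above 10 on every array. MLANA read from 4.32 to 8.57, TYRP1 from 5.54 to 10.33 and PAX3 from 8.05 to 10.74. The 4 keratinocyte markers read from 3.77 to 6.49, the 4 leukocyte markers from 3.20 to 5.68, the 4 adipocyte markers from 4.03 to 5.73, the 4 hepatocyte markers from 3.37 to 6.71 and the 3 endothelial markers from 3.85 to 4.56. Of the 5 fibroblast markers, LUM read from 9.30 to 9.84 and the others from 3.38 to 6.77. In bulk RNA a smaller number of cells of a kind and less RNA per cell cannot be told apart. A log2 intensity carries probe effects, so changes are compared between groups for a gene. Levels of different genes, as for the markers above, are only a rough guide, and signal over background is unknown.

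The promoters of these genes were searched for motifs of the factors named above. RefSeq promoters (GRCh38.p14, 250 bases before to 50 after a start) were found for 28 of the 32 listed genes, as 40 entries, some of which overlap because a gene has several starts. The CCAAT motif (CCAAT or, on the other strand, ATTGG) was in the promoter of 21 of these 28 genes (75%) and of 39.7% of all 27305 genes in the table. A gene counts where any of its entries matched. By entry, 25 of the 40 matched, against 34.6% of all 35116 entries. At least 2 matches were found in 14 of the 28 genes and in 12.9% of all genes. By role, it was in 5 of 6 mevalonate genes, in LSS, in 7 of 8 genes from lanosterol to cholesterol, in 3 of 4 regulators and carriers, in 2 of 3 genes of acetyl-CoA and NADPH supply and in 3 of 6 fatty acid genes. The E-box CACGTG, a sequence MITF can bind, was in 3 of the 28 genes (LSS, SC5D and INSIG1, 10.7%) and in 8.77% of all genes, and CATGTG was in TM7SF2 and ACACA (7.14%, against 13.4% of all genes). The sterol element, in the single form TCACNCCAC, was in SREBF2 only among the 28 genes, and in 1.39% of all genes. Other forms of this element were not searched, so its absence here does not mean that a promoter has none. These counts describe the letters in a short window and are no evidence of binding.

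Bases -180 to -31 before a start are printed 5′ to 3′ in the gene's direction for 11 genes, chosen with their values known. HMGCS1, IDI1, FDPS, MSMO1, NSDHL and DHCR7 are sterol genes with CCAAT matches and a called negative interaction below, SREBF2 and INSIG1 are regulators with other motifs as well, TM7SF2 and ME1 are the genes with a called positive interaction, and ELOVL6 had the largest fall. Capitals mark CCAAT or ATTGG, and also CATGTG in TM7SF2, the sterol element in SREBF2 and CACGTG in INSIG1.
HMGCS1: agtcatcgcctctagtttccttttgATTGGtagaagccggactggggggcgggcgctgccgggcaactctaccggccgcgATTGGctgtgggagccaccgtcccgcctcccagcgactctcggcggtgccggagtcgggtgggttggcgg
IDI1: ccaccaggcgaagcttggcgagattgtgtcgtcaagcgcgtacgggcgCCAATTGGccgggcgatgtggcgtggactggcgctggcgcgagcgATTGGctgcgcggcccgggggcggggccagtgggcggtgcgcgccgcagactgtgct
FDPS: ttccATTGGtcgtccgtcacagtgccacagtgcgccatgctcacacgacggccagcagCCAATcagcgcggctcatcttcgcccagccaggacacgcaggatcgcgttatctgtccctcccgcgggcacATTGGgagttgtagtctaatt
MSMO1: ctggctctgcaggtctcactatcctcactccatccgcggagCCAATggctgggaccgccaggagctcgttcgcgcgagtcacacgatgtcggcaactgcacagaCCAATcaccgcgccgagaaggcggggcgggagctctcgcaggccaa
NSDHL: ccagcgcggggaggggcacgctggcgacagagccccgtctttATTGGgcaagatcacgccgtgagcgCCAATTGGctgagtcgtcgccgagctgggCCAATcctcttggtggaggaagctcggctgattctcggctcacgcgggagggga
DHCR7: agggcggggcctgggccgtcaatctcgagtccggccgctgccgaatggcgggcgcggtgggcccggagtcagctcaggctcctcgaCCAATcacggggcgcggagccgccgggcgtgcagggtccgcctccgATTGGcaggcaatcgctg
TM7SF2: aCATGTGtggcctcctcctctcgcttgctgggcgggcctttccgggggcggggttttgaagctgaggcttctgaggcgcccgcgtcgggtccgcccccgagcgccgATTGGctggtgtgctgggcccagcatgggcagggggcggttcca
SREBF2: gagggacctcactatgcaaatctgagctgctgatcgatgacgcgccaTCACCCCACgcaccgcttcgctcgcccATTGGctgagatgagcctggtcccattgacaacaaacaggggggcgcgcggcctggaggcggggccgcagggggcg
INSIG1: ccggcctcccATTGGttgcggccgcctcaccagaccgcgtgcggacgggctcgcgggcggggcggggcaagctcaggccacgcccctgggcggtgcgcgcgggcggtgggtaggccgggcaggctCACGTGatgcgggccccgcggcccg
ELOVL6: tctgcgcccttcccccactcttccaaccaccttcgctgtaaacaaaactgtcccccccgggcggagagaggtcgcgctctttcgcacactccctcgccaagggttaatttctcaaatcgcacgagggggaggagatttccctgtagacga
ME1: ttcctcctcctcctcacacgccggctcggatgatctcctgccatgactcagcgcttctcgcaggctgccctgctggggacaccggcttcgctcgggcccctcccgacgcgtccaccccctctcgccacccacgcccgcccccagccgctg

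These windows lie on GRCh38.p14 at chr5:43313443-43313592 (minus strand) for HMGCS1, chr10:1048917-1049066 (minus) for IDI1, chr1:155308686-155308835 (plus) for FDPS, chr4:165327489-165327638 (plus) for MSMO1, chrX:152830883-152831032 (plus) for NSDHL and chr11:71448424-71448573 (minus) for DHCR7. The others lie at chr11:65111692-65111841 (plus) for TM7SF2, chr22:41832925-41833074 (plus) for SREBF2, chr7:155297698-155297847 (plus) for INSIG1, chr4:110198646-110198795 (minus) for ELOVL6 and chr6:83431082-83431231 (minus) for ME1. In IDI1 and NSDHL a CCAAT and an ATTGG overlap in CCAATTGG. The windows of ELOVL6 and ME1 hold none of the 4 motifs.

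**Figure D1:**
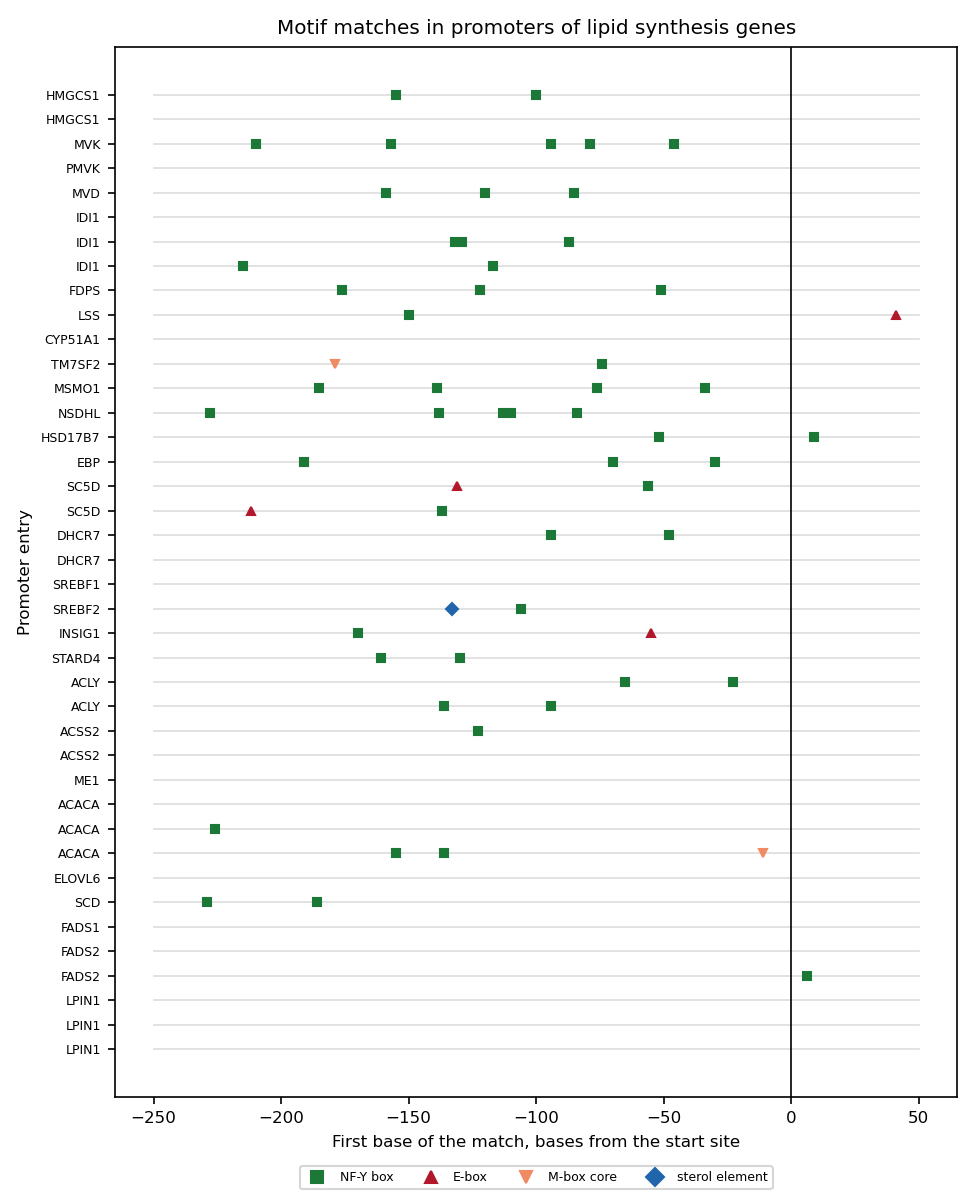
Position of motif matches (bases from the start site, x axis) in the 40 RefSeq promoter entries of 28 lipid synthesis genes (y axis, 1 line per entry). Green squares mark the NF-Y box, present in 21 of the 28 genes, red triangles the E-box, orange triangles the M-box core and the blue diamond the sterol element in SREBF2.

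Most of the 30 genes were lower with the MITF hairpin than with the scrambled one when PLX4032 was present. A gene is said to have risen or fallen where limma's adjusted p was under 0.05 over all 18404 genes. In PLX4032, shMITF cells had 24 of the 30 genes lower than shSCR cells and 3 higher, when 15% of all genes were lower and 13.5% higher (28.5% called). The median log2 change was -0.68 in this comparison, against 0.022 over all genes. In DMSO, shMITF cells had 14 of the 30 lower and 1 higher (18.8% and 14.4% of all genes, 33.2% called), with a median of -0.24 against 0.020. None of the 30 was among the dimmest 40% of genes, which the shares over all genes include. Without that 40%, 5748 genes were called in DMSO, against 6114 with it, and 5117 against 5243 in PLX4032. For PLX4032 in shSCR cells they numbered 5894 against 6278. The share called is thus larger among brighter genes than the shares over all genes given here. Those shares are therefore too low a yardstick for these 30 genes. Shares by direction were not computed without the dim genes. Without the dim genes, 18 of the 30 were lower and 2 higher in DMSO, and 25 and 3 in PLX4032.

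PLX4032 lowered more of the 30 genes in shMITF cells than in shSCR cells, and 4 genes went in opposite directions (HMGCS1 and IDI1 fell in shMITF and rose in shSCR cells, and TM7SF2 and ME1 rose in shMITF and fell in shSCR cells). Some of these calls, for HMGCS1, IDI1 and ME1, ended with 1 array left out, as given below. In shMITF cells PLX4032 lowered 17 of the 30 genes and raised 4 (15.1% and 18.6% of all genes, 33.7% called), with a median of -0.34 against 0.039 over all genes. In shSCR cells it lowered 9 and raised 7 (16.8% and 17.3% of all genes, 34.1% called), with a median of -0.065 against 0.051. This median ran from -0.13 to 0.011 with 1 array left out and was 0.037 under repeated quantile normalization, so its sign is not settled. The counts in shSCR cells are not read as an excess, since the share called was larger among brighter genes. The difference between these responses, the interaction (PLX4032 change in shMITF cells minus that in shSCR cells), was called lower for 13 genes and higher for 2, when 4.85% and 6.97% of all genes were called in those directions (11.8% in all). Its median was -0.34 against 0.0013. Without the dimmest 40% of genes, 2478 genes had a called interaction, against 2176 with them. In that fit 15 of the 30 were lower and 2 higher. The interaction shares over all genes are thus too low for genes as bright as these. With both perturbations against shSCR DMSO cells, 21 genes fell and 3 rose (21.5% and 27.1% of all genes, 48.6% called), with a median of -0.59 against 0.083. The comparisons that use shSCR DMSO cells share those 2 arrays. The 2 shMITF PLX4032 arrays are likewise shared by the hairpin in PLX4032, PLX4032 in shMITF cells, both perturbations and the interaction. The counts of these comparisons are therefore not separate support.

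Of 10 measured reference genes of even level, some moved with the hairpin as well. Their median log2 change was -0.24 in DMSO and -0.16 in PLX4032, with 4 and 3 of them lower and 1 higher in each. Over all genes, 18.8% were lower and 14.4% higher in DMSO, and 15% and 13.5% in PLX4032. With every array shifted by the mean of these genes, which moved the median of all genes to 0.22 in DMSO and 0.18 in PLX4032, 8 lipid genes were lower and 3 higher in shMITF cells in DMSO and 19 were lower and 4 higher in PLX4032. The shift ended the calls of FDPS, IDI1, MSMO1, NSDHL, SCD and TM7SF2 for the hairpin in DMSO (adjusted p from 0.0594 to 0.458), and of ACACA, ACLY, FADS2, LPIN1 and SREBF2 for the hairpin in PLX4032 (0.108 to 0.338). Relative to the median of all genes, the lipid genes stood at -0.26 in DMSO and -0.70 in PLX4032. A shift of whole arrays cannot alter these values, but the choice of genes for the median can. Without the dimmest 40% of genes they were -0.16 in DMSO and -0.66 in PLX4032. Some markers of cell types were called with the hairpin too. Of 24 measured markers of other cell types, 5 were higher and 0 lower in PLX4032 (KRT14, COL3A1, CD14, PECAM1 and TTR), when 13.5% of all genes were higher and 15% lower. In DMSO 3 were higher and 1 lower (LUM, CD14 and TTR, and COL1A2), below the shares of all genes in both directions (14.4% and 18.8%). The largest of these changes were those of the hepatocyte gene TTR, 0.93 ± 0.12 in PLX4032 and 0.97 ± 0.12 in DMSO, and of the monocyte gene CD14, 0.70 ± 0.11 and 0.85 ± 0.11. The mean log2 level of the 24 was 5.09 to 5.12 in shMITF PLX4032, 5.05 to 5.06 in shMITF DMSO, 4.92 to 4.93 in shSCR PLX4032 and 4.90 to 4.93 in shSCR DMSO arrays, while PTPRC stayed between 3.20 and 3.47 and ALB between 3.37 and 3.58. Of 6 melanocyte markers, 4 fell (PMEL, MLANA, TYRP1 and PAX3) and S100B rose with the hairpin in PLX4032 and in DMSO, MLANA by -2.70 ± 0.095 and -1.83 ± 0.095 and TYRP1 by -1.15 ± 0.098 and -2.55 ± 0.098. Their part in the counts was not tested. The count of falls in DMSO dropped to 8 without shMITF DMSO array B. For PLX4032 in shSCR cells the rises dropped to 2 without shSCR PLX4032 array A and the falls to 5 without shSCR DMSO array A or shSCR PLX4032 array B, and in shMITF cells the rises dropped to 2 without shMITF DMSO array B.

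**Figure D2:**
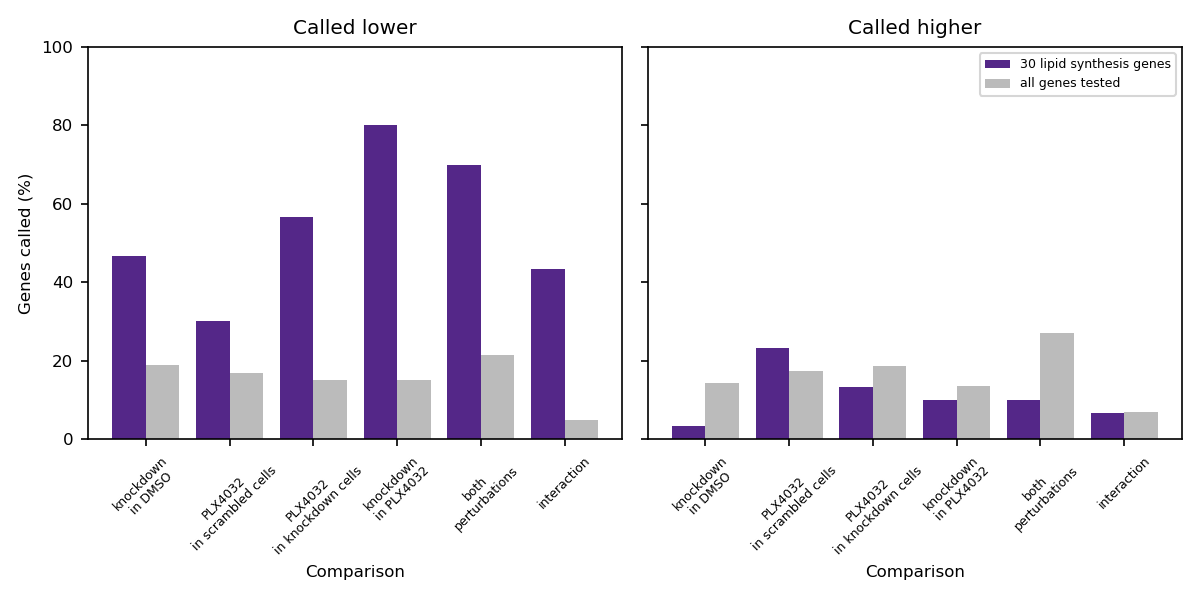
Percentage of genes called lower (left) and higher (right) in each of the 6 comparisons (x axis), for the 30 lipid synthesis genes (purple) and all 18404 genes tested (grey). In knockdown in PLX4032, 80% of the lipid synthesis genes were called lower, beside 15% of all genes.

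**Figure D3:**
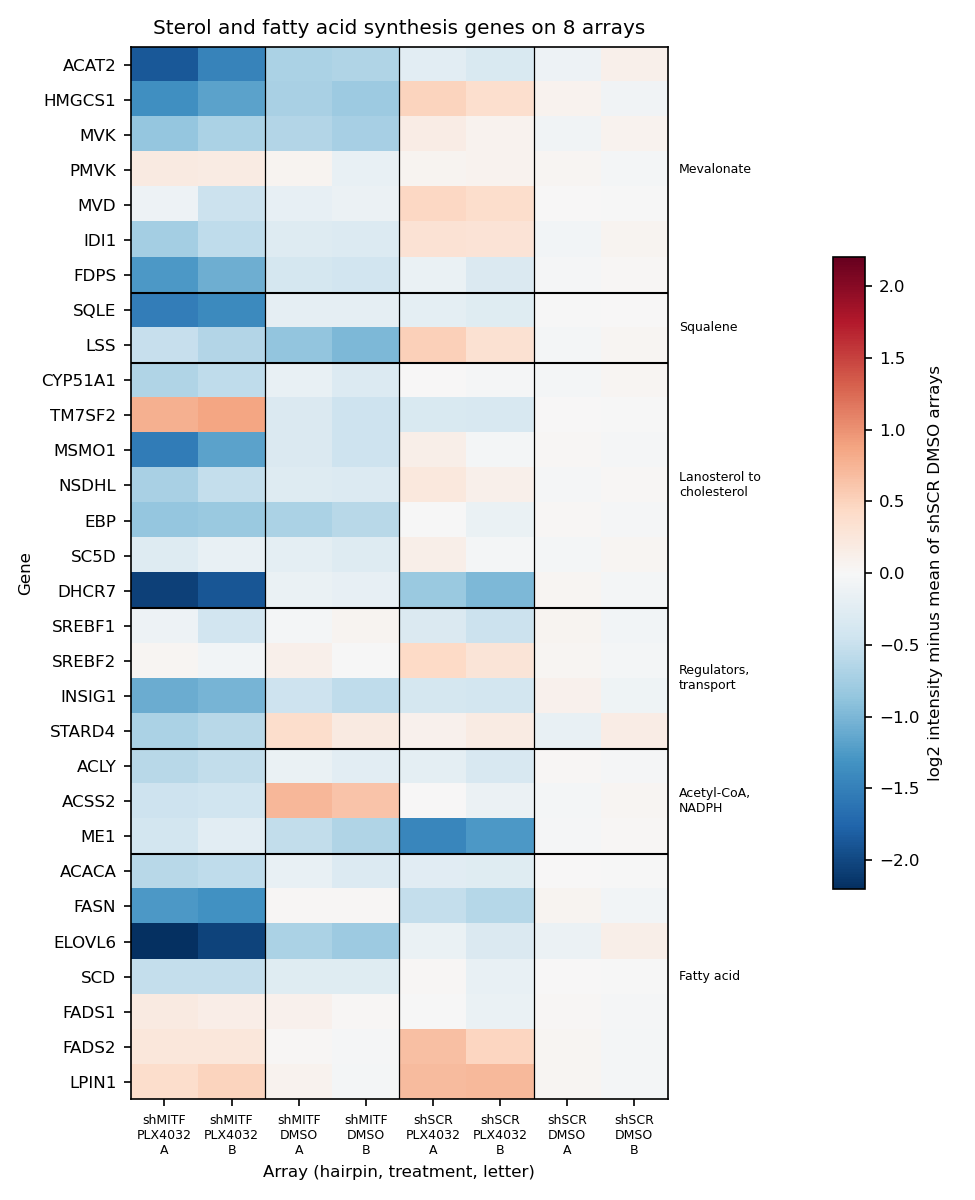
Log2 intensity of the 30 genes (rows, by role) on the 8 arrays (columns), as the difference from the mean of the shSCR DMSO arrays. Blue is lower and red higher, and the deepest blue is in the shMITF PLX4032 columns for ELOVL6, DHCR7 and ACAT2, while TM7SF2 is red there.

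In the mevalonate arm, which turns acetyl-CoA into farnesyl diphosphate, 6 of 7 genes were lower in shMITF than in shSCR cells in PLX4032 (15% of all genes), and 5 were lower in DMSO (18.8% of all genes). The count in DMSO was 3 without shMITF DMSO array B, and 3 with the shift by reference genes. HMGCS1, the synthase that makes HMG-CoA, read 7.55 and 7.74 in shMITF PLX4032 cells, 8.21 and 8.12 in shMITF DMSO cells and 9.40 and 9.28 in shSCR PLX4032 cells, against 8.99 and 8.84 in shSCR DMSO cells. The inhibitor lowered it in shMITF cells (-0.51 ± 0.097, adjusted p = 0.00154) and raised it in shSCR cells (0.42 ± 0.097, adjusted p = 0.00573), and the groups did not overlap in either comparison. Its level in PLX4032 was 3.22-fold lower with the MITF hairpin (-1.69 ± 0.097, adjusted p = 2.87e-07). The interaction was -0.94 ± 0.14, adjusted p = 0.00112. The rise in shSCR cells ended without shSCR PLX4032 array A (0.35 to 0.50 with 1 array left out).

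IDI1, the isomerase that makes dimethylallyl diphosphate, moved the same way. Pseudogenes that its probes may read are on record for IDI1 (3), as for CYP51A1 (3) and SCD (1). It read 9.09 and 9.28 in shMITF PLX4032 cells, 9.54 and 9.53 in shMITF DMSO cells and 10.15 and 10.14 in shSCR PLX4032 cells, against 9.77 and 9.90 in shSCR DMSO cells. PLX4032 changed it by -0.35 ± 0.092 in shMITF cells and raised it by 0.31 ± 0.092 in shSCR cells (interaction -0.66 ± 0.13, adjusted p = 0.00669). In PLX4032 it was lower with the MITF hairpin by 0.96 ± 0.092 (adjusted p = 1.42e-05). Its inhibitor calls were thin. The one in shMITF cells ended without either shMITF DMSO array or shMITF PLX4032 array A (-0.45 to -0.26 with 1 array left out). The one in shSCR cells ended without shSCR DMSO array A or either shSCR PLX4032 array (0.24 to 0.38 with 1 array left out), and also with centring on array medians (adjusted p = 0.059).

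FDPS makes farnesyl diphosphate, the branch point to sterols, ubiquinone and protein prenylation, and 10 pseudogenes of it are on record, which its probes may read. It read 7.63 and 7.82 in shMITF PLX4032 cells, 8.50 and 8.48 in shMITF DMSO cells and 8.75 and 8.57 in shSCR PLX4032 cells, against 8.86 and 8.92 in shSCR DMSO cells. It was lowest in the shMITF PLX4032 arrays, 2.24-fold below the shSCR DMSO arrays (-1.17 ± 0.095, adjusted p = 1.95e-06). The interaction (-0.53 ± 0.13, adjusted p = 0.0263) ended without either shMITF DMSO array, shMITF PLX4032 array A, shSCR DMSO array A or shSCR PLX4032 array A (-0.63 to -0.44 with 1 array left out).

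ACAT2, the cytosolic thiolase of the first step, read 4.95 and 5.34 in shMITF PLX4032 cells, 6.12 and 6.16 in shMITF DMSO cells and 6.58 and 6.47 in shSCR PLX4032 cells, against 6.70 and 6.92 in shSCR DMSO cells. Its fall with both perturbations was 3.17-fold (-1.67 ± 0.13, adjusted p = 1.05e-06), and the groups were in the same order as for FDPS. The interaction (-0.70 ± 0.18, adjusted p = 0.0267) ended without either shMITF DMSO array, shMITF PLX4032 array A, shSCR DMSO array A or either shSCR PLX4032 array (-0.90 to -0.51 with 1 array left out). The probe set was the only one of the 30 below the median gene level of 6.8.

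MVK, the kinase of mevalonate, was called with the hairpin and not with the inhibitor. It read 6.52 and 6.67 in shMITF PLX4032 cells, 6.72 and 6.65 in shMITF DMSO cells and 7.53 and 7.45 in shSCR PLX4032 cells, against 7.29 and 7.45 in shSCR DMSO cells. The change with the MITF hairpin was -0.69 ± 0.092, adjusted p = 0.00021 in DMSO and -0.90 ± 0.092, adjusted p = 2.66e-05 in PLX4032, while the inhibitor changes were -0.09 ± 0.092 in shMITF cells and 0.12 ± 0.092 in shSCR cells, neither called. MVD, the decarboxylase that follows, read 7.84 and 7.47 in shMITF PLX4032 cells, 7.77 and 7.81 in shMITF DMSO cells and 8.40 and 8.32 in shSCR PLX4032 cells, against 7.95 and 7.93 in shSCR DMSO cells. It rose with PLX4032 in shSCR cells (0.42 ± 0.11, adjusted p = 0.0134). That call ended without shSCR DMSO array B or shSCR PLX4032 array A (0.38 to 0.45 with 1 array left out). MVD was lower with the MITF hairpin in PLX4032 (-0.70 ± 0.11, adjusted p = 0.000622). Its interaction (-0.55 ± 0.16, adjusted p = 0.0456) ended without either shMITF DMSO array, shMITF PLX4032 array B, either shSCR DMSO array or either shSCR PLX4032 array (-0.73 to -0.36 with 1 array left out), and also with the shift by reference genes (adjusted p = 0.0892) and with repeated quantile normalization (adjusted p = 0.0513). PMVK, the kinase between them, was called in none of the 6 comparisons, with changes between -0.05 and 0.24.

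Both measured enzymes that lead from squalene to lanosterol were lower with the MITF hairpin in PLX4032. SQLE, the squalene epoxidase and a rate-limiting step of the later pathway, read 8.93 and 9.05 in shMITF PLX4032 cells, 10.24 and 10.25 in shMITF DMSO cells and 10.23 and 10.18 in shSCR PLX4032 cells, against 10.45 and 10.45 in shSCR DMSO cells. The shMITF PLX4032 arrays stood more than 1 log2 unit below the other 6 arrays. PLX4032 lowered it 2.38-fold in shMITF cells (-1.25 ± 0.081, adjusted p = 5.06e-07) and by 0.24 ± 0.081 in shSCR cells, a small call. It ended without either shMITF DMSO array, either shSCR DMSO array or either shSCR PLX4032 array (-0.27 to -0.22 with 1 array left out), and also with the shift by reference genes (adjusted p = 0.064), in a fit of the compared groups alone (adjusted p = 0.0695) and with repeated quantile normalization (adjusted p = 0.071). The interaction was -1.01 ± 0.11, adjusted p = 0.000208.

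LSS, which closes squalene epoxide into lanosterol, rose with the inhibitor. It read 8.29 and 8.15 in shMITF PLX4032 cells, 7.93 and 7.81 in shMITF DMSO cells and 9.32 and 9.13 in shSCR PLX4032 cells, against 8.76 and 8.83 in shSCR DMSO cells. PLX4032 raised it in shMITF cells (0.35 ± 0.096, adjusted p = 0.0142) and in shSCR cells (0.44 ± 0.096, adjusted p = 0.00458), and the hairpin lowered it by 0.92 ± 0.096 in DMSO and by 1.01 ± 0.096 in PLX4032 (adjusted p = 3.36e-05 and 1.44e-05). Its interaction of -0.08 ± 0.14 was not called (adjusted p = 0.775). The rise in shMITF cells ended without shMITF DMSO array B or shMITF PLX4032 array A (0.28 to 0.42 with 1 array left out). That in shSCR cells ended without shSCR PLX4032 array A (0.34 to 0.53 with 1 array left out).

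From lanosterol to cholesterol, 5 of 7 measured genes were lower and 1 higher in shMITF than in shSCR cells in PLX4032 (15% lower and 13.5% higher over all genes). DHCR7, the reductase of the last step, read 8.16 and 8.33 in shMITF PLX4032 cells, 10.08 and 10.03 in shMITF DMSO cells and 9.40 and 9.22 in shSCR PLX4032 cells, against 10.26 and 10.18 in shSCR DMSO cells. It fell with the inhibitor 3.5-fold in shMITF cells (-1.81 ± 0.094, adjusted p = 1.1e-07) and 1.87-fold in shSCR cells (-0.91 ± 0.094, adjusted p = 2.52e-05). The interaction was -0.90 ± 0.13, adjusted p = 0.00117, and the hairpin change in DMSO, -0.16 ± 0.094, was not called (adjusted p = 0.212).

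MSMO1, the methyl sterol oxidase, read 8.85 and 9.23 in shMITF PLX4032 cells, 10.09 and 9.94 in shMITF DMSO cells and 10.53 and 10.36 in shSCR PLX4032 cells, against 10.43 and 10.36 in shSCR DMSO cells. PLX4032 lowered it in shMITF cells (-0.97 ± 0.12, adjusted p = 8.32e-05), and its change in shSCR cells was 0.05 ± 0.12 and not called. The interaction was -1.02 ± 0.17, adjusted p = 0.00281. NSDHL, which works on the same methyl groups, read 8.87 and 9.05 in shMITF PLX4032 cells, 9.30 and 9.27 in shMITF DMSO cells and 9.81 and 9.69 in shSCR PLX4032 cells, against 9.54 and 9.60 in shSCR DMSO cells. It was lower with the MITF hairpin in PLX4032 (-0.79 ± 0.090, adjusted p = 5.57e-05). Its interaction (-0.50 ± 0.13, adjusted p = 0.0269) ended without either shMITF DMSO array, shMITF PLX4032 array A, shSCR DMSO array A or shSCR PLX4032 array A (-0.59 to -0.41 with 1 array left out). In DMSO the fall of MSMO1 (-0.38 ± 0.12) ended without either shMITF DMSO array or either shSCR DMSO array (-0.46 to -0.31 with 1 array left out), and also with the shift by reference genes (adjusted p = 0.178). That of NSDHL (-0.29 ± 0.090) ended without either shMITF DMSO array or shSCR DMSO array B (-0.32 to -0.26 with 1 array left out), and also with the shift by reference genes (adjusted p = 0.321).

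EBP, the sterol isomerase, was called with the hairpin. It read 7.71 and 7.76 in shMITF PLX4032 cells, 7.88 and 7.96 in shMITF DMSO cells and 8.56 and 8.43 in shSCR PLX4032 cells, against 8.59 and 8.55 in shSCR DMSO cells. It fell with the MITF hairpin by 0.65 ± 0.083 in DMSO and 0.76 ± 0.083 in PLX4032 (adjusted p = 0.000143 and 4.4e-05), with no inhibitor change called. CYP51A1, the lanosterol demethylase, read 10.16 and 10.27 in shMITF PLX4032 cells, 10.66 and 10.52 in shMITF DMSO cells and 10.82 and 10.79 in shSCR PLX4032 cells, against 10.77 and 10.86 in shSCR DMSO cells in its bright probe set, and was lower with the hairpin in PLX4032 (-0.60 ± 0.087, adjusted p = 0.000356). A dimmer probe set of CYP51A1 gave -0.59 there, but its other changes differed: 0.68 for PLX4032 in shSCR cells against -0.01 in the bright one, 0.37 against -0.23 for the hairpin in DMSO, and 0.095 against -0.61 for both perturbations. With the mean of both probe sets the calls for both perturbations (adjusted p = 0.0938) and for PLX4032 in shMITF cells (0.0523) ended, so CYP51A1 is settled here only for the hairpin in PLX4032. SC5D, the sterol desaturase, was called in no comparison, with changes between -0.26 and 0.04.

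TM7SF2 encodes a sterol reductase that acts after CYP51A1, and it went the other way. It read 8.24 and 8.32 in shMITF PLX4032 cells, 7.14 and 7.00 in shMITF DMSO cells and 7.12 and 7.11 in shSCR PLX4032 cells, against 7.46 and 7.45 in shSCR DMSO cells. Only the shMITF PLX4032 arrays stood above 8, and no other array of the 8 exceeded 7.46. PLX4032 raised it 2.31-fold in shMITF cells (1.21 ± 0.083, adjusted p = 8.54e-07) and lowered it in shSCR cells (-0.34 ± 0.083, adjusted p = 0.00859), with an interaction of 1.55 ± 0.12, adjusted p = 1.53e-05. In DMSO the hairpin lowered it (-0.38 ± 0.083, adjusted p = 0.00489). That call ended without shMITF DMSO array B (-0.46 to -0.31 with 1 array left out), and also with the shift by reference genes (adjusted p = 0.0726).

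**Figure D4:**
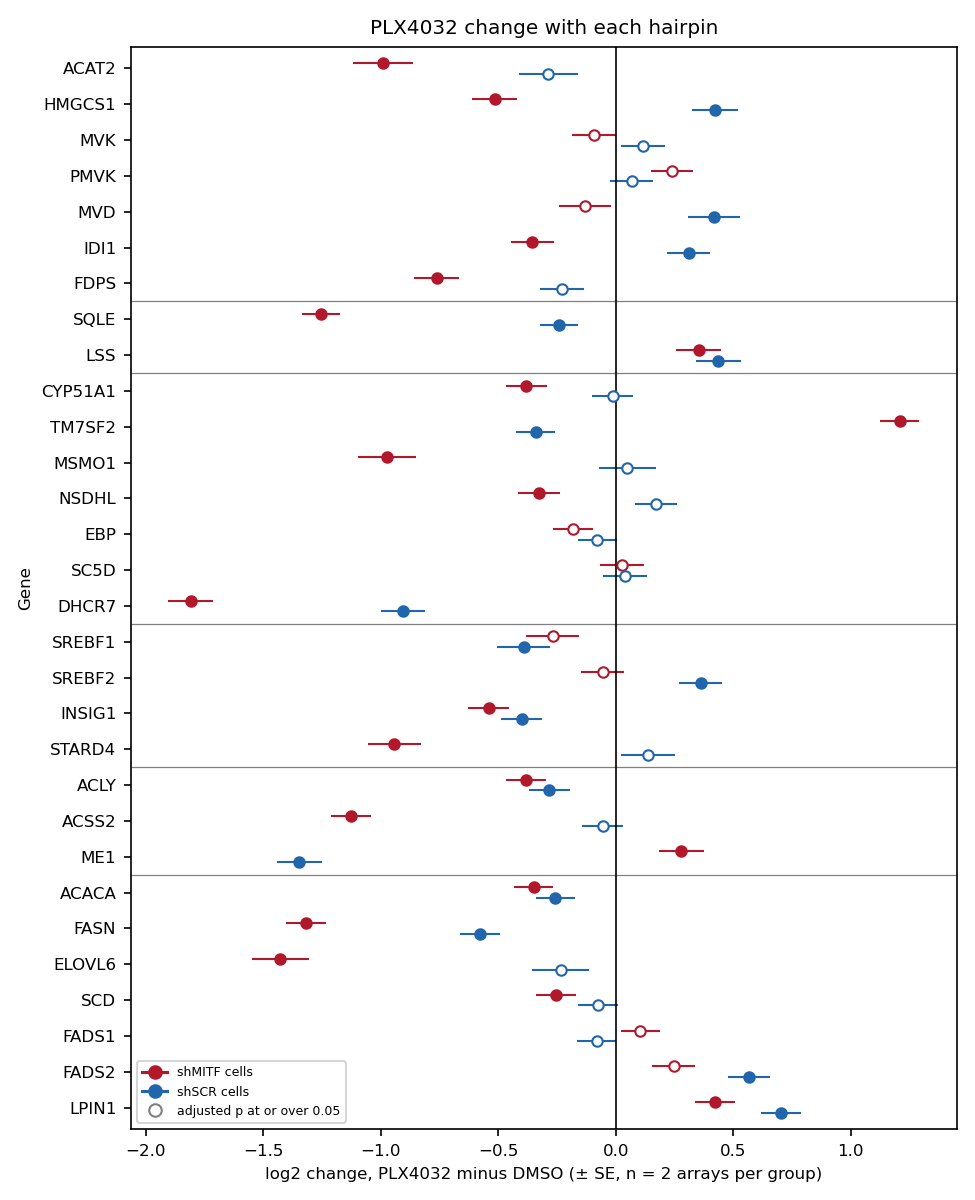
Log2 change of each gene (y axis, by role) with PLX4032 relative to DMSO in shMITF cells (red) and in shSCR cells (blue), as estimate ± SE (x axis, n = 2 arrays per group). Filled points had an adjusted p under 0.05, and the red points lie left of the blue ones for 13 genes with a called negative interaction, while TM7SF2 and ME1 show the reverse.

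The genes for the SREBP factors were called in few comparisons, SREBF2 in 2 and SREBF1 in 1 of 6. SREBF2, the main activator of sterol genes, read 9.37 and 9.26 in shMITF PLX4032 cells, 9.43 and 9.30 in shMITF DMSO cells and 9.75 and 9.61 in shSCR PLX4032 cells, against 9.36 and 9.27 in shSCR DMSO cells. It rose with PLX4032 in shSCR cells (0.36 ± 0.092, adjusted p = 0.0101) and was lower with the MITF hairpin in PLX4032 (-0.37 ± 0.092, adjusted p = 0.0114), while its change with both perturbations was -0.00 ± 0.092. Those calls were thin. The first ended without shSCR DMSO array B or shSCR PLX4032 array A (0.29 to 0.43 with 1 array left out). The second ended without shMITF PLX4032 array B or shSCR PLX4032 array A (-0.44 to -0.29 with 1 array left out), and also with the shift by reference genes (adjusted p = 0.108). SREBF1, which favours fatty acid genes, read 8.64 and 8.33 in shMITF PLX4032 cells, 8.70 and 8.80 in shMITF DMSO cells and 8.43 and 8.27 in shSCR PLX4032 cells, against 8.81 and 8.68 in shSCR DMSO cells. Its fall with PLX4032 in shSCR cells (-0.39 ± 0.11, adjusted p = 0.0198) ended without shSCR DMSO array A or shSCR PLX4032 array B (-0.47 to -0.31 with 1 array left out), and also with the shift by reference genes (adjusted p = 0.072) and with repeated quantile normalization (adjusted p = 0.0673), and it was called in no other comparison.

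INSIG1, a brake on SREBP release that is itself an SREBP target, fell in every comparison of 2 groups. It read 7.64 and 7.70 in shMITF PLX4032 cells, 8.26 and 8.16 in shMITF DMSO cells and 8.33 and 8.32 in shSCR PLX4032 cells, against 8.81 and 8.64 in shSCR DMSO cells. The fall with both perturbations was 2.08-fold (-1.05 ± 0.088, adjusted p = 2.33e-06), and the inhibitor changes of -0.54 ± 0.088 in shMITF cells and -0.40 ± 0.088 in shSCR cells did not differ past the threshold (interaction -0.14 ± 0.12, adjusted p = 0.557). STARD4, a carrier that moves sterols between membranes, read 7.65 and 7.74 in shMITF PLX4032 cells, 8.73 and 8.54 in shMITF DMSO cells and 8.44 and 8.53 in shSCR PLX4032 cells, against 8.19 and 8.50 in shSCR DMSO cells. PLX4032 lowered it in shMITF cells (-0.94 ± 0.11, adjusted p = 6.32e-05), and its change in shSCR cells was 0.14 ± 0.11. The interaction was -1.08 ± 0.16, adjusted p = 0.00127.

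Among the genes that supply acetyl-CoA and NADPH, ACSS2 and ME1 gave opposite interactions. ACSS2, which makes acetyl-CoA from acetate, read 8.96 and 8.98 in shMITF PLX4032 cells, 10.15 and 10.04 in shMITF DMSO cells and 9.43 and 9.28 in shSCR PLX4032 cells, against 9.36 and 9.46 in shSCR DMSO cells. It was the one gene of the 30 called higher with the MITF hairpin in DMSO, where some alternatives called 2 or 3 (0.68 ± 0.087, adjusted p = 0.00014), and in PLX4032 it was lower with that hairpin (-0.39 ± 0.087, adjusted p = 0.00626). The inhibitor lowered it 2.18-fold in shMITF cells (-1.13 ± 0.087, adjusted p = 2.08e-06). The interaction was -1.07 ± 0.12, adjusted p = 0.000231. The hairpin call in PLX4032 ended without shSCR PLX4032 array A (-0.46 to -0.31 with 1 array left out).

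ME1, the cytosolic malic enzyme that yields NADPH, read 9.56 and 9.74 in shMITF PLX4032 cells, 9.43 and 9.31 in shMITF DMSO cells and 8.54 and 8.71 in shSCR PLX4032 cells, against 9.95 and 9.99 in shSCR DMSO cells. With the inhibitor it rose in shMITF cells (0.28 ± 0.096, adjusted p = 0.0438) and fell 2.54-fold in shSCR cells (-1.35 ± 0.096, adjusted p = 1.64e-06). The rise ended without either shMITF DMSO array or shMITF PLX4032 array B (0.19 to 0.37 with 1 array left out), and also with centring on array medians (adjusted p = 0.0852), with the shift by reference genes (adjusted p = 0.0648) and in a fit of the compared groups alone (adjusted p = 0.0509). The interaction, 1.63 ± 0.14, adjusted p = 2.74e-05, was the largest of the 30 genes, and ME1 was 2.03-fold higher with the MITF hairpin in PLX4032 (1.02 ± 0.096, adjusted p = 1.23e-05) and lower in DMSO (-0.60 ± 0.096, adjusted p = 0.000677).

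ACLY, which cuts citrate into acetyl-CoA, read 10.68 and 10.76 in shMITF PLX4032 cells, 11.14 and 11.06 in shMITF DMSO cells and 11.08 and 10.95 in shSCR PLX4032 cells, against 11.33 and 11.26 in shSCR DMSO cells. It fell with both perturbations by 0.57 ± 0.085 (adjusted p = 0.000211), with no called interaction (-0.10 ± 0.12). Its smaller falls with PLX4032 in shSCR cells (-0.28) and with the hairpin in PLX4032 (-0.29) were less firm. The first ended without either shSCR DMSO array or shSCR PLX4032 array B (-0.35 to -0.21 with 1 array left out), and also with repeated quantile normalization (adjusted p = 0.0827). The second ended without shMITF PLX4032 array A or shSCR PLX4032 array A (-0.36 to -0.23 with 1 array left out), and also with the shift by reference genes (adjusted p = 0.194).

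Of the 7 genes of the fatty acid chain, 6 were lower and 1 higher with the MITF hairpin in PLX4032 (15% lower and 13.5% higher over all genes), FASN and ELOVL6 with the largest falls. The falls numbered 3 without shMITF PLX4032 array A, without shSCR PLX4032 array A and with the shift by reference genes. FASN, the fatty acid synthase, read 9.01 and 8.95 in shMITF PLX4032 cells, 10.30 and 10.29 in shMITF DMSO cells and 9.75 and 9.64 in shSCR PLX4032 cells, against 10.34 and 10.21 in shSCR DMSO cells. The hairpin made no called difference in DMSO (0.02 ± 0.086) and lowered FASN in PLX4032 (-0.72 ± 0.086, adjusted p = 8.23e-05). PLX4032 lowered it 2.49-fold in shMITF cells (-1.32 ± 0.086, adjusted p = 5.52e-07) and 1.49-fold in shSCR cells (-0.58 ± 0.086, adjusted p = 0.000336), with an interaction of -0.74 ± 0.12, adjusted p = 0.00234.

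ELOVL6, the elongase of saturated chains made by FASN, had the largest fall of the 30 genes with both perturbations, 4.51-fold. It read 6.72 and 7.01 in shMITF PLX4032 cells, 8.35 and 8.23 in shMITF DMSO cells and 8.89 and 8.72 in shSCR PLX4032 cells, against 8.90 and 9.17 in shSCR DMSO cells. The change with the hairpin was -1.94 ± 0.12, adjusted p = 5.6e-07 in PLX4032 and -0.75 ± 0.12, adjusted p = 0.000807 in DMSO. With PLX4032 it fell by 1.43 ± 0.12 in shMITF cells, and its change in shSCR cells was -0.23 ± 0.12 and not called. The interaction was -1.19 ± 0.17, adjusted p = 0.00105.

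ACACA, the carboxylase that commits acetyl-CoA to fatty acids, read 8.65 and 8.70 in shMITF PLX4032 cells, 9.09 and 8.96 in shMITF DMSO cells and 9.01 and 9.00 in shSCR PLX4032 cells, against 9.27 and 9.25 in shSCR DMSO cells. It fell by 0.58 ± 0.082 with both perturbations (adjusted p = 0.00014). Its interaction of -0.09 ± 0.12 was not called. Its other calls were small, between -0.35 and -0.26. That for the hairpin in PLX4032 ended without shMITF PLX4032 array A or either shSCR PLX4032 array (-0.35 to -0.30 with 1 array left out), and also with the shift by reference genes (adjusted p = 0.122). The inhibitor call of ACACA in shSCR cells ended without either shSCR DMSO array or either shSCR PLX4032 array (-0.27 to -0.25 with 1 array left out), and also with the shift by reference genes (adjusted p = 0.0544) and in a fit of the compared groups alone (adjusted p = 0.0552). That in shMITF cells ended without shMITF DMSO array A (-0.42 to -0.28 with 1 array left out).

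SCD, the stearoyl-CoA desaturase, read 11.35 and 11.37 in shMITF PLX4032 cells, 11.62 and 11.62 in shMITF DMSO cells and 11.91 and 11.72 in shSCR PLX4032 cells, against 11.90 and 11.87 in shSCR DMSO cells. It was lower with the hairpin in PLX4032 (-0.45 ± 0.087, adjusted p = 0.00232) and with both perturbations (-0.53 ± 0.087, adjusted p = 0.000443). Its fall in DMSO (-0.27 ± 0.087) ended without either shMITF DMSO array or either shSCR DMSO array (-0.29 to -0.26 with 1 array left out), and also with the shift by reference genes (adjusted p = 0.458) and with repeated quantile normalization (adjusted p = 0.0627). Its fall with PLX4032 in shMITF cells (-0.25 ± 0.087) ended without either shMITF DMSO array or either shMITF PLX4032 array (-0.26 to -0.25 with 1 array left out).

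FADS2 and FADS1 desaturate polyunsaturated fatty acids and lie on opposite strands, with starts 599 and 800 bases apart in the RefSeq table. The FADS2 starts (plus strand) lie at lower coordinates than the FADS1 start (minus strand), so the transcribed 5′ ends overlap. FADS2 read 9.43 and 9.44 in shMITF PLX4032 cells, 9.22 and 9.16 in shMITF DMSO cells and 9.85 and 9.65 in shSCR PLX4032 cells, against 9.22 and 9.14 in shSCR DMSO cells. It rose with PLX4032 in shSCR cells (0.57 ± 0.090, adjusted p = 0.000544). Its small change with the hairpin in PLX4032 (-0.32 ± 0.090) ended without either shMITF PLX4032 array or shSCR PLX4032 array A (-0.42 to -0.22 with 1 array left out), and also with the shift by reference genes (adjusted p = 0.159). Its rise with both perturbations (0.25 ± 0.090) ended without either shMITF DMSO array, either shMITF PLX4032 array or either shSCR DMSO array (0.21 to 0.29 with 1 array left out), and also with centring on array medians (adjusted p = 0.262) and in a fit of the compared groups alone (adjusted p = 0.054). FADS1 read 11.20 and 11.15 in shMITF PLX4032 cells, 11.11 and 11.03 in shMITF DMSO cells and 10.99 and 10.86 in shSCR PLX4032 cells, against 11.03 and 10.98 in shSCR DMSO cells. Its only call, 0.25 ± 0.083 for the hairpin in PLX4032, ended without either shMITF DMSO array, either shMITF PLX4032 array or either shSCR PLX4032 array (0.19 to 0.31 with 1 array left out), and also with centring on array medians (adjusted p = 0.152) and in a fit of the compared groups alone (adjusted p = 0.0776).

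LPIN1, a phosphatidate phosphatase of triglyceride synthesis, read 9.65 and 9.74 in shMITF PLX4032 cells, 9.34 and 9.21 in shMITF DMSO cells and 9.96 and 9.96 in shSCR PLX4032 cells, against 9.30 and 9.21 in shSCR DMSO cells. PLX4032 raised it in shMITF cells (0.42 ± 0.085, adjusted p = 0.00237) and in shSCR cells (0.70 ± 0.085, adjusted p = 7.92e-05), and the interaction of -0.28 ± 0.12 was not called (adjusted p = 0.182). Its small fall with the hairpin in PLX4032 (-0.26 ± 0.085) ended without either shMITF DMSO array, either shMITF PLX4032 array or either shSCR PLX4032 array (-0.31 to -0.22 with 1 array left out), and also with the shift by reference genes (adjusted p = 0.338) and in a fit of the compared groups alone (adjusted p = 0.0576).

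**Figure D5:**
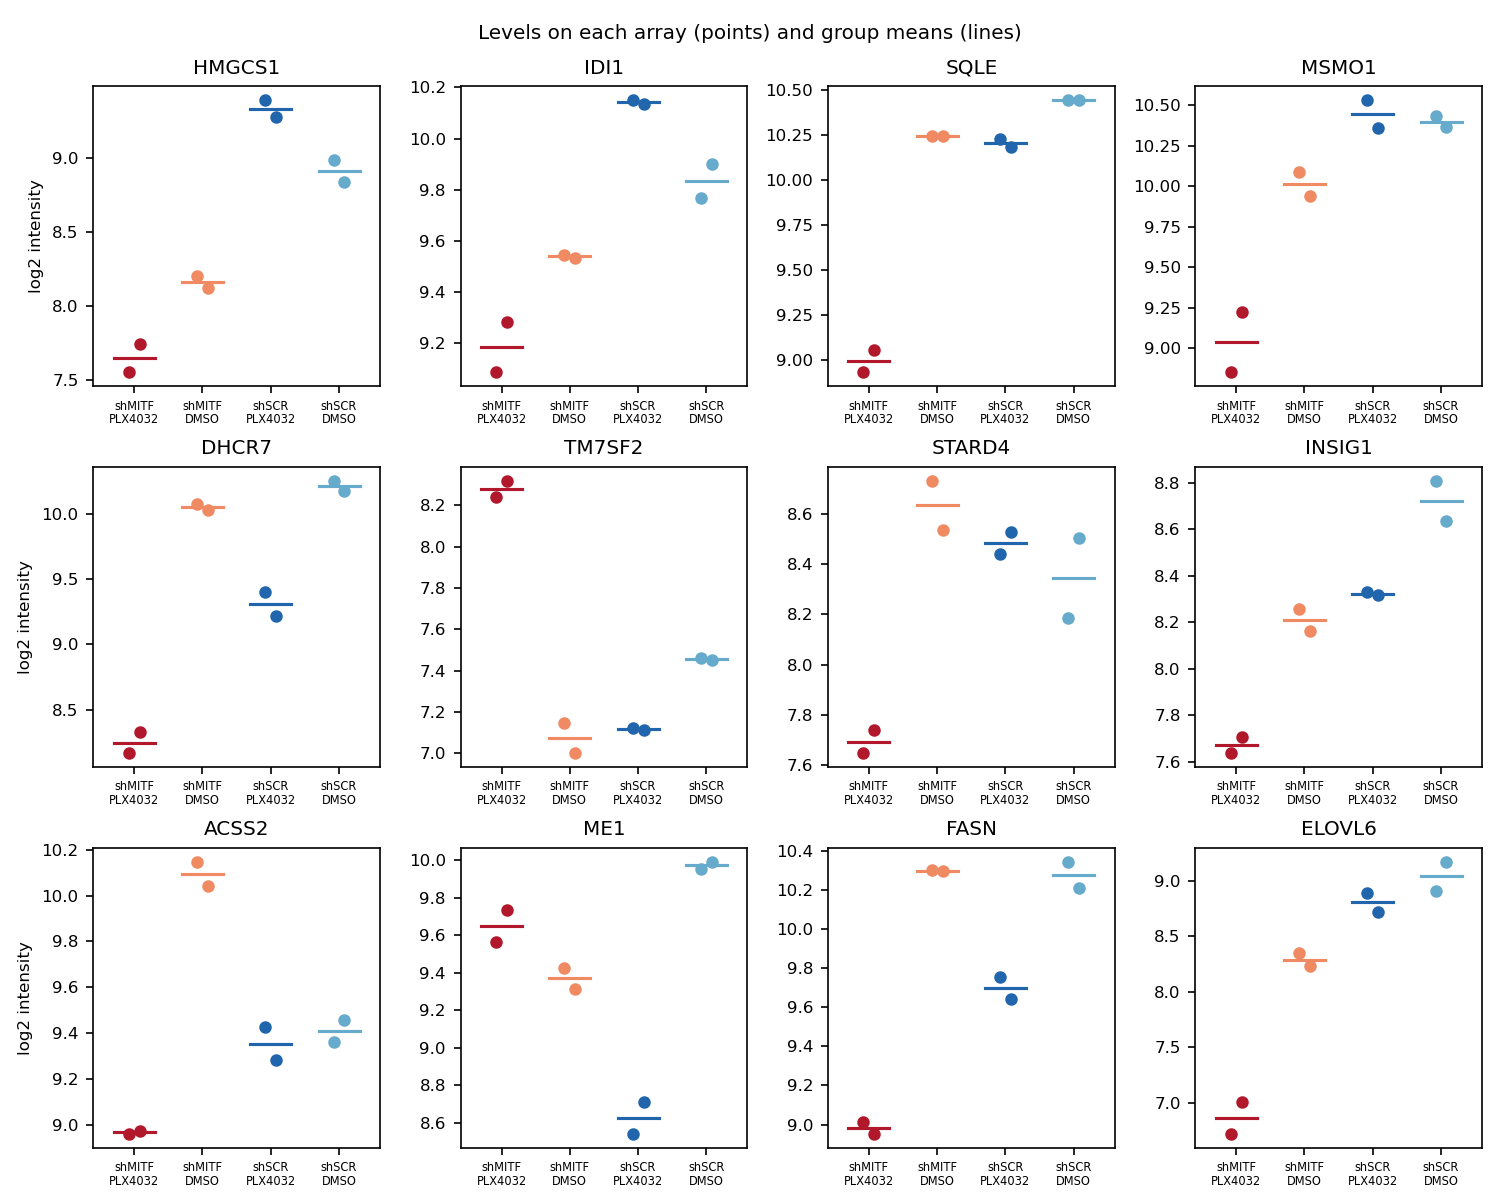
Log2 intensity (y axis, scaled for each gene) of 12 genes on each array (points) with the group mean (line), for shMITF PLX4032, shMITF DMSO, shSCR PLX4032 and shSCR DMSO cells (x axis). The shMITF PLX4032 arrays are the lowest for HMGCS1, IDI1, SQLE, MSMO1, DHCR7, STARD4, INSIG1, ACSS2, FASN and ELOVL6 and the highest for TM7SF2, while for ME1 the shSCR PLX4032 arrays are the lowest.

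Other lipid genes were taken from 6 lists that do not overlap the 30. The inhibitor counts below stand beside 15.1% lower and 18.6% higher over all genes in shMITF cells and 16.8% and 17.3% in shSCR cells, those of both perturbations beside 21.5% and 27.1%, and interactions beside 4.85% and 6.97%. Of 9 genes of SREBP processing and sterol sensing, 1 was lower and 1 higher in shMITF than in shSCR cells in PLX4032 (15% lower and 13.5% higher over all genes), and 1 and 1 in DMSO (18.8% and 14.4% over all genes). These shares are near or below those of all genes. TRIB1, a pseudokinase with a role in lipid control, was the one lower in PLX4032 (-1.96 ± 0.080, adjusted p = 2.12e-08), and it carried the only called interaction of this list (-2.15 ± 0.11, adjusted p = 1.91e-06). It read 7.93 and 7.96 in shMITF PLX4032 cells, 10.47 and 10.41 in shMITF DMSO cells and 9.95 and 9.85 in shSCR PLX4032 cells, against 10.26 and 10.24 in shSCR DMSO cells. MBTPS1, a protease that cuts SREBPs, was the one higher with the hairpin, by 0.40 ± 0.079 in PLX4032 and 0.35 ± 0.079 in DMSO. The inhibitor lowered 2 and raised 1 of the 9 in shMITF cells and lowered 2 and raised 0 in shSCR cells, ERLIN1 (-0.49 and -0.55) and TRIB1 (-2.49 and -0.35) being those that fell.

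Genes of sterol uptake, transport, storage and efflux were called in both directions. Of 18 measured, 4 were lower and 7 higher with the MITF hairpin in PLX4032 (15% lower and 13.5% higher over all genes), and 3 lower and 6 higher in DMSO (18.8% and 14.4% over all genes). SOAT1, which esterifies cholesterol, was lower in PLX4032 (-0.80 ± 0.081, adjusted p = 2.41e-05) and in DMSO (-0.95 ± 0.081, adjusted p = 8.04e-06), while the lysosomal lipase gene LIPA was higher in PLX4032 (0.81 ± 0.085, adjusted p = 3.04e-05). The inhibitor lowered 2 and raised 5 in shMITF cells and lowered 3 and raised 7 in shSCR cells. The largest falls were those of GRAMD1B, a sterol carrier of the endoplasmic reticulum, by 4.44 ± 0.16 in shMITF cells and 3.54 ± 0.16 in shSCR cells. CYP27A1, a mitochondrial sterol hydroxylase, rose by 1.09 ± 0.081 in shMITF cells and 1.08 ± 0.081 in shSCR cells. With both perturbations 9 rose and 5 fell, and 1 interaction was higher (the lipoprotein receptor gene VLDLR, 0.89 ± 0.11) and 2 were lower (GRAMD1B, -0.90 ± 0.23, and GRAMD1C, -0.48 ± 0.13).

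Of 8 genes of other isoprenoid branches, 2 were lower and 0 higher with the hairpin in PLX4032 (15% lower and 13.5% higher over all genes), and 3 and 0 in DMSO (18.8% and 14.4% over all genes). PDSS1, which makes the tail of ubiquinone, fell furthest, by 1.41 ± 0.099 in PLX4032 and 0.89 ± 0.099 in DMSO, and by 2.27 ± 0.099 with both perturbations. Its inhibitor changes were -1.38 ± 0.099 in shMITF cells and -0.86 ± 0.099 in shSCR cells, and its interaction was the only one called (-0.52 ± 0.14, adjusted p = 0.0351).

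Of 25 other genes of fatty acid synthesis, elongation and activation, 7 were lower and 3 higher with the hairpin in PLX4032 (15% lower and 13.5% higher over all genes), and 9 and 3 in DMSO (18.8% and 14.4% over all genes). The elongase gene ELOVL2 led the falls, with -0.94 ± 0.092 in PLX4032, -1.07 ± 0.092 in DMSO and -2.19 ± 0.092 with both perturbations. The inhibitor lowered 3 and raised 5 in shMITF cells and lowered 5 and raised 4 in shSCR cells. The desaturase gene SCD5 rose by 1.13 ± 0.090 in shMITF cells and by 0.87 ± 0.090 in shSCR cells. The interaction was higher for 3 (ACSL1, 1.17 ± 0.13, HACD2, 0.63 ± 0.13, and MLXIP, 0.63 ± 0.12) and lower for 0 of the 25.

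Of 17 genes of glycerolipid and phospholipid synthesis, 3 were lower and 0 higher with the hairpin in PLX4032 (15% lower and 13.5% higher over all genes), and 7 and 2 in DMSO (18.8% and 14.4% over all genes). AGPAT5, an acyltransferase, fell by 0.90 ± 0.12 in PLX4032, 0.67 ± 0.12 in DMSO and 1.68 ± 0.12 with both perturbations. The inhibitor lowered 3 and raised 7 in shMITF cells and lowered 3 and raised 6 in shSCR cells. GPAM, the first acyltransferase of the pathway, rose by 0.93 ± 0.088 in shMITF cells and had the only called interaction (0.53 ± 0.12, adjusted p = 0.0181).

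Of 25 genes of fatty acid uptake, lipolysis and oxidation, 8 were lower and 1 higher with the hairpin in PLX4032 (15% lower and 13.5% higher over all genes), and 7 and 3 in DMSO (18.8% and 14.4% over all genes). The gene higher in PLX4032 was LPL, the lipoprotein lipase (2.34 ± 0.084, adjusted p = 1.05e-08), and the fatty acid binding protein gene FABP7 fell most (-1.98 ± 0.15, adjusted p = 1.9e-06). The inhibitor lowered 6 and raised 5 in shMITF cells and lowered 3 and raised 8 in shSCR cells, with LPL at -2.08 ± 0.084 and -3.48 ± 0.084. CPT1A, which admits fatty acids to mitochondria, rose by 1.39 ± 0.080 in shMITF cells and by 0.64 ± 0.080 in shSCR cells (interaction 0.75 ± 0.11, adjusted p = 0.00143). With both perturbations 7 rose and 9 fell in this list. Interactions were called higher for 2 and lower for 2 of the 25, and ran from -1.10 (FABP7) to 1.40 (LPL).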

How the data were processed

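RNA of 8 samples was biotin-labelled and hybridised to Affymetrix arrays, 1 per sample. The values deposited by the submitters are on the log2 scale, 1 intensity for each probe set and array, made with RMA (no version given), per the submitters' processing notes. For the authors' build and probe annotation, nothing is given in the sources used. RMA as usually run normalizes quantiles, which can remove a shift shared by most genes, and changes of dim or very bright probe sets can be understated. Array medians of the deposited values ran from 5.53 to 5.68. Of 32321 probe sets, 19158 carried 1 gene symbol in the platform annotation of 2016. The brightest per gene left 18404 genes, with no filter on dim genes. limma 3.58.1 (R 4.3.3) was fitted with a mean per group over 8 arrays (4 residual and 6.73 prior degrees of freedom), and two-sided p-values were adjusted by Benjamini-Hochberg over 18404 genes within each of 6 comparisons, with a threshold of 0.05. The fit was tested on simulated data. Changes are log2 estimates ± SE. Precision is limited by the number of arrays: the SE had a median of 0.0909 for a change of these genes and 0.129 for an interaction. Pearson correlation across genes was 0.997 to 0.998 within groups. All 30 genes are named, with up to 2 genes of the largest called change per wider list and comparison, and MITF, DUSP6 and SPRY4 as checks. GRAMD1C, HACD2 and MLXIP were added after their values were seen. The genes, lists and tests were chosen with earlier results of these data known. The letters A and B were not used as pairs in the main fit, and whether they pair the arrays is not settled. Between groups the A minus B difference correlated from -0.094 to 0.329, above 0.1 in 1 of 6 pairs of groups. Promoters came from the RefSeq table on GRCh38.p14.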

Additional observations from a re-analysis of the deposited data

Results flagged for a closer look

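The response to PLX4032 differed between shMITF and shSCR cells for 15 of the 30 genes, by the interaction term of the limma fit (log2 change in shMITF cells minus that in shSCR cells, ± SE, n = 2 arrays per group). It was lower in shMITF cells for ELOVL6 (-1.19 ± 0.17, adjusted p = 0.00105), STARD4 (-1.08 ± 0.16, adjusted p = 0.00127), ACSS2 (-1.07 ± 0.12, adjusted p = 0.000231), MSMO1 (-1.02 ± 0.17, adjusted p = 0.00281), SQLE (-1.01 ± 0.11, adjusted p = 0.000208), HMGCS1 (-0.94 ± 0.14, adjusted p = 0.00112) and DHCR7 (-0.90 ± 0.13, adjusted p = 0.00117). It was also lower for FASN (-0.74 ± 0.12, adjusted p = 0.00234), ACAT2 (-0.70 ± 0.18, adjusted p = 0.0267), IDI1 (-0.66 ± 0.13, adjusted p = 0.00669), MVD (-0.55 ± 0.16, adjusted p = 0.0456), FDPS (-0.53 ± 0.13, adjusted p = 0.0263) and NSDHL (-0.50 ± 0.13, adjusted p = 0.0269). It was higher in shMITF cells for TM7SF2 (1.55 ± 0.12, adjusted p = 1.53e-05) and ME1 (1.63 ± 0.14, adjusted p = 2.74e-05). Over all 18404 genes, 4.85% were called lower and 6.97% higher. These shares are larger among brighter genes, since 2478 genes were called without the dimmest 40% and 2176 with them. HMGCS1 and IDI1 fell in shMITF cells and rose in shSCR cells, and TM7SF2 and ME1 rose in shMITF cells and fell in shSCR cells. The calls of ACAT2, FDPS, MVD and NSDHL each ended in at least 5 of the 8 fits with 1 array left out. Some inhibitor calls behind the opposite directions were thin. Those of IDI1 with both hairpins, the rise of HMGCS1 in shSCR cells and the rise of ME1 in shMITF cells ended in some of those fits. The cause of the differences between hairpins was not tested.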

How the results depend on the processing

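Of 118 changes called for these genes over the 6 comparisons, 95 stayed called in the same direction under all alternatives that kept every array (9, or 8 for the interaction, which a fit of 2 groups cannot give), and 83 when each of the 8 arrays was left out in turn. Leaving 1 array in a group costs power, and the lone array is assumed to vary like the other groups. In DMSO, genes called higher with the MITF hairpin numbered 2 under repeated quantile normalization, 2 without the dimmest 40% of genes (which held none of the 30), 2 with an intensity trend and 3 with arrays shifted by reference genes, which also gave 8 lower and a median of -0.039. That shift gave a median of -0.52 for the hairpin in PLX4032, and 5 higher and a median of -0.40 for both perturbations, for which centring on array medians gave -0.71. These 2 settings move all genes alike on an array. The median for PLX4032 in shSCR cells was 0.037 under repeated quantile normalization. The mean of both probe sets of CYP51A1 gave a rise of 0.34 with PLX4032 in shSCR cells, because the probe sets differ. With 1 array left out, the hairpin in DMSO gave 1 to 2 higher and 8 to 14 lower, PLX4032 in shSCR cells 2 to 7 higher and 5 to 10 lower, and PLX4032 in shMITF cells 2 to 5 higher. The falls for the hairpin in PLX4032 and for PLX4032 in shMITF cells were fewer in some of these fits, and lower interactions were fewer in each. The median ran from -0.70 to -0.65 for the hairpin in PLX4032. It ran from -0.40 to -0.31 for PLX4032 in shMITF cells and from -0.405 to -0.296 for the interaction. With letter as a replicate block, both perturbations gave 22 lower and the interaction 14, and no other count changed. Signal over background is unknown. Counts of the other lipid lists were not recomputed under these alternatives.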
